A study of Mus musculus with 6 samples.

Results

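Presentation of peptides on MHC class I was examined in TuBo cells through 10 genes: H2-K1, H2-D1, B2m, Tap1, Tap2, Tapbp, Psmb8, Psmb9, Nlrc5 and Erap1. They were taken by symbol alone from the 21960 genes counted, and each symbol matched 1 row. Of the 8 that had enough reads for a test, 6 were higher in p140Cap-expressing than in mock cells, Erap1 was lower, and H2-D1 was not called, where 35.2% of all 11800 genes tested were higher and 35.9% lower. Psmb9 (3.41-fold), Tap1 (2.58-fold) and Tap2 (1.95-fold) differed most, whereas H2-K1 and B2m were higher by 1.27-fold and 1.20-fold.

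All libraries are from TuBo, a mammary carcinoma line of the BALB/c-MMTV-NeuT strain, in which the MMTV promoter drives the activated rat HER2/Neu oncogene. Of the 6 RNA-Seq libraries, 3 are mock controls (genotype wt in the labels) and 3 come from cells overexpressing p140Cap, the adaptor protein encoded by Srcin1, after infection with a pBabe-puro retrovirus and puromycin selection. The p140Cap cells are clones grown from single cells and then pooled. The labels call the samples cell lines in one place and mice in the design text, and here they are taken to be TuBo cells, although the sources do not say whether replicates came from separate cultures, so that p-values measure only the spread between these libraries.

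Class I molecules consist of a heavy chain (H2-K, H2-D or H2-L in this strain of mice) and the light chain β2-microglobulin, and carry short peptides of intracellular proteins to the cell surface, where CD8+ T cells inspect them. The proteasome cuts most of these peptides. In cells exposed to interferon γ it exchanges its catalytic subunits for Psmb8, Psmb9 and Psmb10, and the peptides are pumped into the endoplasmic reticulum (ER) by Tap1 and Tap2, trimmed by Erap1 and loaded with the help of tapasin (Tapbp). Nlrc5 is the transactivator of class I genes, and tumor cells with little of this machinery are poorly seen by T cells.

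Depth ran from 13770385 to 75506562 reads per library, with all mock libraries deeper than those of p140Cap cells. Srcin1 was at 15.0 ± 1.96 CPM (SD, n = 3) in mock and 2343 ± 153 CPM in p140Cap cells, where CPM are reads scaled to a common library size after TMM adjustment (log2 fold change 7.29, SE 0.09, quasi-likelihood test of edgeR, Benjamini-Hochberg adjusted p = 7.05e-19). With the same test and a threshold of 0.05, 71.1% of the 11800 genes tested were called, 35.2% of them higher and 35.9% lower in p140Cap cells, and the normalized values of the groups did not overlap for 73.4%. The median log2 fold change over all genes was 0.00. The epithelial markers Epcam, Krt8 and Krt18 were abundant (means of 892 to 2134 CPM), with the sum over 10 such markers at 6645 to 7202 CPM in mock and 7351 to 7635 CPM in p140Cap cells, although Krt19 had only 15 reads in all 6 libraries. Of the 9 tested, 4 were higher, 2 lower (Krt7, 803 to 447 CPM, and Cldn7, 222 to 166 CPM) and 3 not called.

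Given those shares, calls alone say little about any gene, and the sizes of the differences and the direction matter more. Of the 8 tested genes 6 were higher (75%, against 35.2% of all genes), 1 was lower (12.5%, against 35.9%), and the groups did not overlap for 7. Their median log2 fold change was 0.45. Each of the 8 exceeded the low-count limit of 0.413 CPM in all 6 libraries, so that none was kept by its p140Cap values alone. Psmb8 exceeded it in 1 library and Nlrc5 in none. The counts of 6 higher and 1 lower were found again under each of 13 other ways of processing.

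The regulatory sequence in front of these genes is shown before their values, since H2-K1 and H2-D1 have nearly the same stretch in it, and Tap1 and Psmb9 share theirs in large part. Sequences are those of RefSeq for GRCm38.p6, in windows from 250 bases before to 50 bases after the start. This reference is of another mouse strain than the BALB/c-derived TuBo cells, with another haplotype of the class I heavy chains. The bases in TuBo cells were not examined, so that all sites described are those of the reference. Windows were given for 8 of the 10 genes, all but Tap2 and Nlrc5. In the windows of H2-K1 and H2-D1 a stretch of 30 bases holds a consensus site for NF-κB followed by GAANNGAAA (on either strand), which is 1 base shorter than the canonical core of the interferon-stimulated response element (ISRE: GAAA, any 2 bases, GAAA), both in capitals. The H2-K1 copy is chr17:34000429-34000458 on the minus strand, before the start used for the window yet within the longer span RefSeq gives the gene. The H2-D1 copy is chr17:35262923-35262952 on the plus strand, upstream of the gene.
H2-K1: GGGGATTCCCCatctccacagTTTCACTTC
H2-D1: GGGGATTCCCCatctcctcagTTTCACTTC
Counted from 1 at the 5′ end, these reference copies differ at 1 of 30 bases (A18T, H2-K1 base first), which lies in neither motif. Whether the copies in TuBo cells differ in the same way was not tested. Of all 32851 windows, 7.52% hold the shorter letters GAANNGAAA, 3.44% the canonical ISRE core and 8.46% the NF-κB consensus.

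B2m has the NF-κB consensus and, just before it, the canonical ISRE core in its window, but not the shorter letters of the heavy chains. Its 250 bases upstream (chr2:122147437-122147686, plus strand) are printed with these sites, the core of a cAMP response element (CRE, TGACG) and a CCAAT box in capitals, both of the latter read on either strand.
B2m: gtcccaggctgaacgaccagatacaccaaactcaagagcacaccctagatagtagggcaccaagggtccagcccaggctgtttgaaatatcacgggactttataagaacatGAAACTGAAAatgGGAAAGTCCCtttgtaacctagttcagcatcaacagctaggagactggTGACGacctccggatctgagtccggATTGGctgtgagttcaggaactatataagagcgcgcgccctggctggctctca
Tap1 and Psmb9 start 226 bases apart and run in opposite directions, so that their windows share 275 bases. The 225 bases between the starts (chr17:34187331-34187555, printed on the strand of Tap1) hold 1 CCAAT box, close to the start of Psmb9, and 1 CRE core, in capitals.
Tap1-Psmb9: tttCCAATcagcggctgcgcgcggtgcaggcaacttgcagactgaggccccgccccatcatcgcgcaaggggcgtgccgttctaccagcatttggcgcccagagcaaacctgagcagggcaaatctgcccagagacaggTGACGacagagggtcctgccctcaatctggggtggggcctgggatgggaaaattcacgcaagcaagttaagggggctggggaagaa
Neither form of the ISRE letters, nor TTCNNNGAA (the γ-activated sequence, GAS), nor the NF-κB consensus was found in the windows of Tap1 and Psmb9. The GAS letters were found for Psmb8 alone of the 8 genes, 97 bases before its start, and in 8.3% of all windows. CRE cores were present for 5 genes (20.8% of all windows) and CCAAT boxes for 6 (37.4% of all windows), whereas the windows of Erap1 and Psmb8 held neither. In these counts the CRE core and the CCAAT box shared by Tap1 and Psmb9 stand for both genes. Erap1 had the canonical ISRE core, on the minus strand and across the start used for its window, which lies within the longer span RefSeq gives the gene, and none of the other motifs, so that this core was present for 2 of the 8 genes (B2m and Erap1), 1 higher and 1 lower in p140Cap cells. No match overlapped one of another motif. A match is only a match of letters, and binding was not measured.

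**Figure D1:**
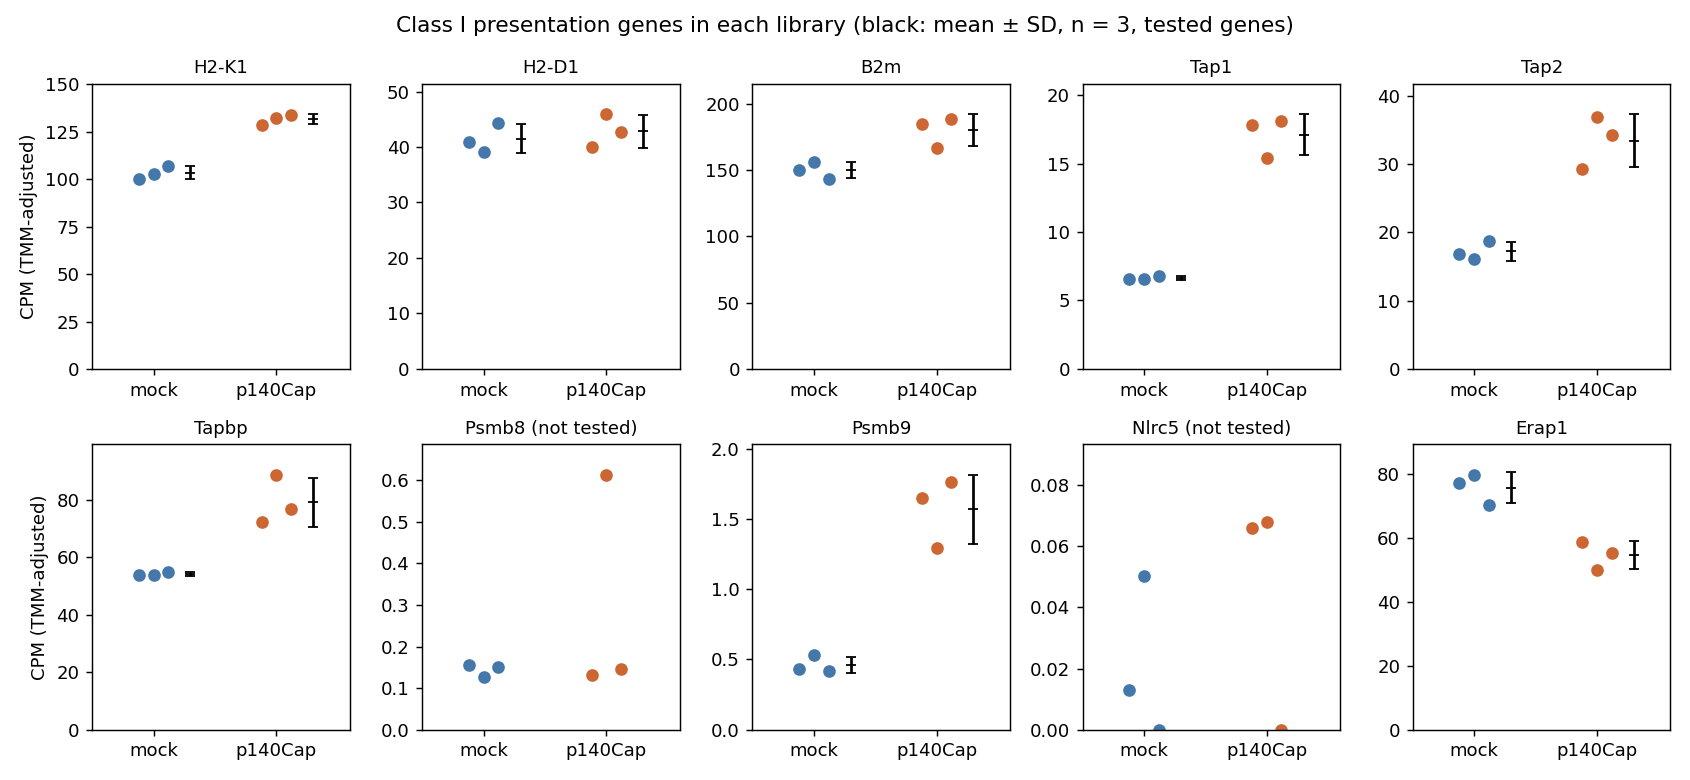
Expression of the 10 class I presentation genes in the 3 mock (blue) and 3 p140Cap (orange) libraries, as CPM after TMM adjustment on a linear axis that starts at 0 and differs between panels; black bars are the mean ± SD of the tested genes. The groups are apart for H2-K1, B2m, Tap1, Tap2, Tapbp, Psmb9 and Erap1, of which only Erap1 is lower in p140Cap cells, and they overlap for H2-D1, Psmb8 and Nlrc5.

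H2-K1 (ENSMUSG00000061232, chr17:33996012-34000619) encodes the classical heavy chain H2-K. Its level was 100.2, 102.9 and 107.0 CPM in the mock libraries and 128.7, 132.3 and 133.9 CPM in the p140Cap libraries. The p140Cap libraries were all above the mock libraries, with a gap wider than the range within either group (103 ± 3.39 against 132 ± 2.66 CPM, SD, n = 3 each). The log2 fold change was 0.35 (SE 0.05, edgeR adjusted p = 4.61e-06).

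H2-D1 (chr17:35263094-35267497), the other classical heavy chain in the counts, was at 41.0, 39.2 and 44.3 CPM in mock and 39.9, 45.9 and 42.7 CPM in p140Cap libraries. The groups were intermingled, and the log2 fold change of 0.05 (SE 0.06) was not called (edgeR adjusted p = 0.504). Reads of H2-K1 per read of H2-D1 in the same library, a ratio that library size cannot change, were 2.45, 2.63 and 2.41 in mock and 3.22, 2.88 and 3.13 in p140Cap cells. Each p140Cap library had the higher ratio, a difference of 0.30 on the log2 scale, with p = 0.1 in an exact two-sided permutation test, the smallest value that 3 libraries against 3 can give (0.16 after Benjamini-Hochberg adjustment over the 8 ratios examined).

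The heavy chains are near copies of each other, which limits how reads are divided between them. Of all stretches of 50 bases in the H2-K1 transcripts, 11.3% occur in another gene (6.23% in H2-D1), and for H2-D1 the share is 12.6%. BALB/c mice carry the H-2d haplotype, the reference is C57BL/6 with H-2b, and H2-L has no row in the counts. How these differences moved reads among heavy chains was not tested.

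B2m (chr2:122147687-122153082) encodes the light chain shared by class I molecules and has no stretch of 50 bases in common with another gene. It was at 150.0, 156.2 and 143.6 CPM in mock and 185.1, 166.4 and 188.8 CPM in p140Cap libraries. The lowest p140Cap library lay above the highest mock library, and the log2 fold change was 0.26 (SE 0.05, edgeR adjusted p = 0.000369). Relative to B2m in the same library, neither H2-K1 (log2 difference 0.09, p = 0.4, exact permutation test) nor H2-D1 (-0.22, p = 0.3, exact permutation test) separated the groups, whose ratios overlapped.

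Tap1 and Tap2 (chr17:34187556-34197225 and chr17:34204479-34216321) encode the chains of the transporter that carries peptides into the ER. Tap1 was at 6.55, 6.56 and 6.79 CPM in mock and 17.8, 15.4 and 18.1 CPM in p140Cap libraries, the groups lying apart by more than the whole range within either. Its log2 fold change was 1.37 (SE 0.09, edgeR adjusted p = 5.72e-10), which ranked 495 by p among the 11800 genes tested. Tap2 was at 16.8, 16.1 and 18.7 CPM in mock and 29.3, 36.9 and 34.3 CPM in p140Cap libraries, again without overlap, with a log2 fold change of 0.96 (SE 0.08, edgeR adjusted p = 2.5e-08). The log2 fold change was larger for Tap1, and reads of Tap1 per read of Tap2 went from 0.363 to 0.408 in mock to 0.418 to 0.608 in p140Cap libraries. In log2 terms this was 0.41 (p = 0.1, exact permutation test), and the highest mock and the lowest p140Cap ratio nearly met.

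Tapbp (chr17:33919478-33929290) encodes tapasin, which holds class I molecules at the transporter while peptides are loaded. Its level was 53.8, 53.9 and 55.0 CPM in mock and 72.0, 88.5 and 76.8 CPM in p140Cap libraries. The mock values were nearly the same and the p140Cap values spread more widely above them (54.2 ± 0.669 against 79.1 ± 8.50 CPM), with a log2 fold change of 0.55 (SE 0.06, edgeR adjusted p = 9.13e-07). Zbtb22 overlaps Tapbp on the same strand, and 15.6% of the stretches of 50 bases of Tapbp occur in it.

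Psmb9 (chr17:34182030-34187330), the immunoproteasome subunit that replaces Psmb6, was rare in absolute terms. It had 33, 21 and 14 reads in mock and 25, 19 and 24 reads in p140Cap libraries, that is 0.431, 0.528 and 0.420 CPM against 1.65, 1.29 and 1.76 CPM. The shallower p140Cap libraries thus held as many reads in sum (68) as the mock libraries (68), and the groups did not overlap. The log2 fold change of 1.77 (SE 0.26, edgeR adjusted p = 1.04e-05) was the largest of the 8, and on pooled reads the ratio was 3.44 with a 95% exact interval of 2.42 to 4.89, which covers counting error only.

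Psmb8 (chr17:34198195-34201454), which replaces Psmb5, had 12, 5 and 5 reads in mock and 2, 9 and 2 reads in p140Cap libraries. In CPM, 2 p140Cap libraries (0.132 and 0.147) lay within the mock range of 0.126 to 0.157, and p140Cap replicate 2 alone was higher at 0.613. Pooled, 22 mock and 13 p140Cap reads gave a ratio of 2.03 with a 95% exact interval of 0.941 to 4.22, so that a difference was not detectable at this depth. Nlrc5 (chr8:94434335-94527272) had 1, 2 and 0 reads in mock and 1, 1 and 0 in p140Cap libraries, too few for a comparison. A count of 3 reads would be 0.0392 to 0.0901 CPM in a mock and 0.198 to 0.220 CPM in a p140Cap library. Lower levels rest on fewer than 3 reads, as those of Psmb8 in 2 p140Cap libraries did.

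Erap1 (chr13:74639573-74693205), the ER aminopeptidase that trims peptides to the length class I molecules bind, went the other way. It was at 77.3, 79.7 and 70.2 CPM in mock and 58.7, 50.1 and 55.4 CPM in p140Cap libraries, every p140Cap library below every mock library (75.8 ± 4.93 against 54.7 ± 4.34 CPM). The log2 fold change was -0.47 (SE 0.06, edgeR adjusted p = 5.39e-06). In RNA of a whole culture, fewer cells with a transcript and less of it per cell cannot be told apart, for Erap1 as for the other genes.

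Levels of different genes can be set side by side only per length, here as CPM per kilobase of exon. The length was that of all exons annotated for a gene, which can exceed that of the transcript in use. Neither the SD nor a lack of overlap covers this, or reads divided among near copies and overlapping genes. In mock cells the order was B2m (71.2 ± 2.99), H2-K1 (32.5 ± 1.06), H2-D1 (13.9 ± 0.868), Tapbp (12.3 ± 0.152), Erap1 (9.35 ± 0.608), Tap2 (3.61 ± 0.283), Tap1 (1.10 ± 0.0224) and Psmb9 (0.121 ± 0.0156), followed by Psmb8 and Nlrc5, and no neighbours among the 8 tested genes overlapped. In p140Cap cells Tapbp (17.9 ± 1.93) stood above H2-D1 (14.3 ± 0.998), without overlap. Tap2 (7.02 ± 0.810) and Erap1 (6.75 ± 0.535) overlapped there. The remaining genes kept their places, with Tap1 at 2.85 ± 0.249 and Psmb9 at 0.413 ± 0.0643 CPM per kilobase. In both groups the transporter and the immunoproteasome subunit thus remained below the heavy and light chains.

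The proteasome subunits were then compared as exchange partners within each library. Psmb9 reads per 1 read of Psmb6 were 0.00280, 0.00336 and 0.00237 in mock and 0.0125, 0.00959 and 0.0127 in p140Cap libraries, without overlap, a log2 difference of 2.03 (p = 0.1, exact permutation test, adjusted p = 0.16). Even the highest of these values stands for few Psmb9 reads per read of the constitutive subunit. With libraries thinned at random to the same total the difference was 2.74 instead of 2.03. That was a single draw, which left few Psmb9 reads in the mock libraries. For Psmb8 and Psmb5 the log2 difference was 1.32 (p = 0.1, exact permutation test), but 0.62 without p140Cap replicate 2. Psmb8 of the remaining p140Cap libraries lay within the mock range in CPM, on 2 reads each. Psmb5 itself was lower in p140Cap cells (log2 fold change -0.65). Psmb10 per Psmb7 overlapped between groups (log2 difference 0.09, p = 0.4, exact permutation test). Psmb9 per Tap1, the divergent neighbours, had a log2 difference of 0.40 without overlap (p = 0.1, exact permutation test), and of 1.15 in the same thinned draw. Both genes overlap on opposite strands in GENCODE, and whether counting used strand is not known.

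**Figure D2:**
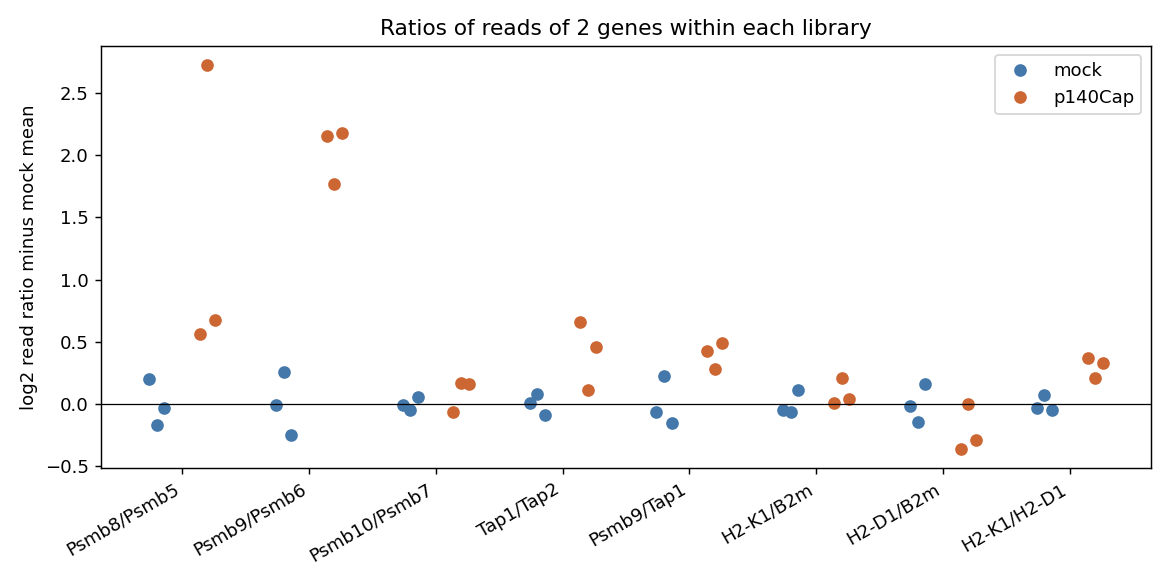
Log2 ratio of the reads of 2 genes within each library, less the mean of the mock libraries (line at 0), for the 8 pairs examined, with mock libraries in blue and p140Cap libraries in orange. Psmb9/Psmb6 shows the widest gap between groups (2.03 between means), the high Psmb8/Psmb5 point is p140Cap replicate 2, and Psmb10/Psmb7, H2-K1/B2m and H2-D1/B2m overlap.

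The constitutive catalytic subunits that these replace were all lower in p140Cap cells (3 of 3, against 35.9% of all genes, median log2 fold change -0.34). Psmb5 was at 101 to 113 CPM in mock and 65.8 to 68.5 CPM in p140Cap libraries (log2 fold change -0.65, SE 0.05, edgeR adjusted p = 1.78e-08). Psmb7 (-0.34, adjusted p = 2.69e-05) and Psmb6 (-0.27, adjusted p = 0.000416) differed less. Of the other parts that interferon induces, the activator subunit Psme1 was higher (73.1 ± 1.67 to 94.1 ± 2.26 CPM, log2 fold change 0.36, adjusted p = 3.5e-06), its partner Psme2 was not called (0.05, adjusted p = 0.364), and Psmb10 was lower (11.1 ± 0.579 to 9.35 ± 1.03 CPM, -0.24, adjusted p = 0.0312). The Psmb10 call was lost in 4 of 13 alternatives, DESeq2 among them (highest adjusted p = 0.176).

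The other class I heavy chains, non-classical and class I-like, were mostly higher. Of these, 12 of the 17 in the counts were tested, 9 were higher, none lower and 3 not called (Cd1d1, H2-Q1 and H2-Q10), with a median log2 fold change of 0.59. The share called higher was 75%, against 35.2% of all genes. H2-Q7 was kept by its p140Cap libraries alone and its call was lost without p140Cap replicate 3 (log2 fold change 1.14, edgeR adjusted p = 0.0129). Without it 8 of 11 were higher and the median was 0.58. Mr1, which presents vitamin B metabolites to MAIT cells, was at 15.7 to 17.7 CPM in mock and 52.5 to 57.5 CPM in p140Cap libraries, a gap far wider than either range (log2 fold change 1.74, SE 0.06, adjusted p = 1.59e-12). H2-T23, the Qa-1 heavy chain that engages NKG2 receptors, was at 98.6 ± 5.48 and 204 ± 8.94 CPM (1.05, SE 0.05, adjusted p = 4.72e-11). H2-T24 was higher at low level (0.755 to 1.65 CPM, 1.14, adjusted p = 0.000249). Shared stretches of 50 bases made up none of Mr1 and 13.1% of H2-T23, against 24.6 to 30.1% of H2-Q4, H2-Q6, H2-Q7 and H2-T22, whose reads are the least certain.

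**Figure D3:**
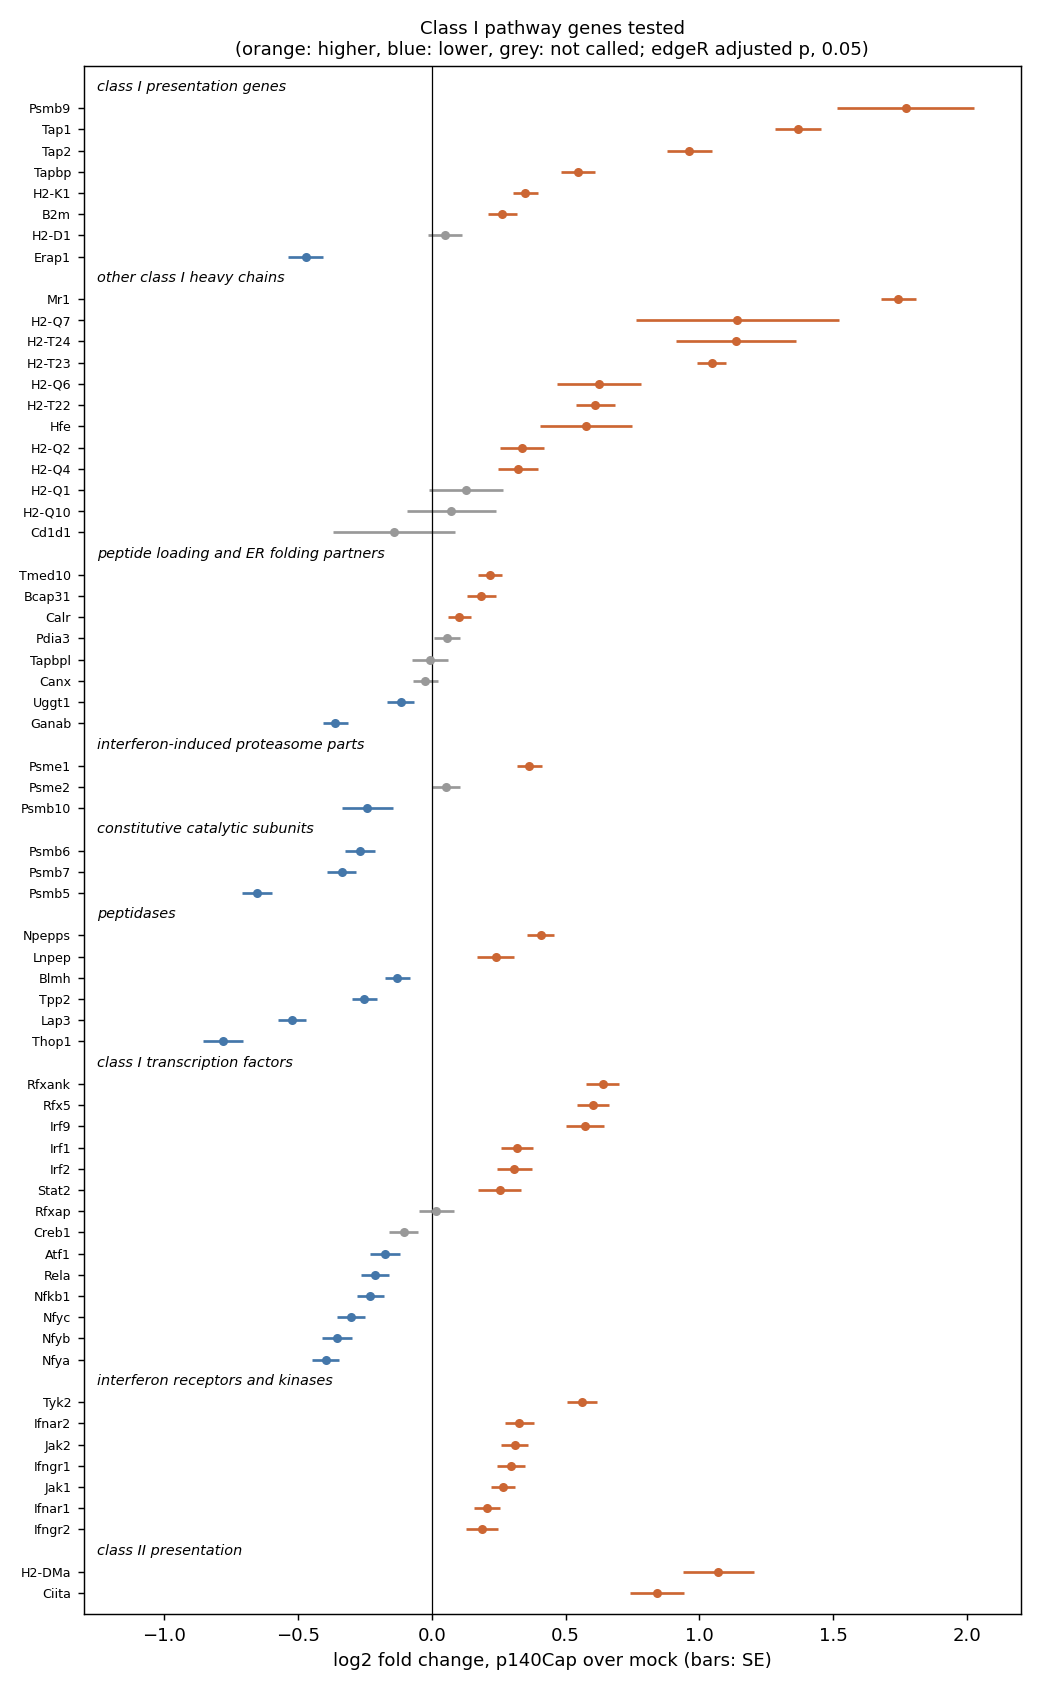
Log2 fold change (p140Cap over mock, bars are the SE) of the tested class I genes and of the genes shown from the lists of related genes, with orange for called higher, blue for called lower and grey for not called (edgeR adjusted p under 0.05), and a line at 0. The class I genes and the other heavy chains lie mostly to the right (medians 0.45 and 0.59), and the constitutive catalytic subunits to the left (median -0.34).

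Partners that fold and load class I molecules in the ER had calls near the background shares. Of 8 tested, 3 were higher (37.5%, against 35.2% of all genes), 2 lower (25%, against 35.9%) and 3 not called, with a median log2 fold change of 0.03, near that of all genes. Calreticulin (Calr) was at 982 to 1005 CPM in mock and 1062 to 1071 CPM in p140Cap libraries (log2 fold change 0.10, edgeR adjusted p = 0.0443), a call lost in 8 of 13 alternatives. Calnexin (Canx, -0.02, adjusted p = 0.655), Pdia3 (0.06, adjusted p = 0.298) and the tapasin-related editor Tapbpl (-0.01, adjusted p = 0.938) were not called. The glucosidase subunit Ganab was lower (-0.36, adjusted p = 3.16e-06), whereas the cargo receptors Tmed10 (0.22, adjusted p = 0.000458) and Bcap31 (0.19, adjusted p = 0.00635) were higher, the latter not without p140Cap replicate 3. Tapbp at 0.55 was therefore further from 0 than any of these 8 partners.

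Cytosolic and other peptidases that trim or destroy peptides comprised 2 higher (33.3%, against 35.2% of all genes) and 4 lower (66.7%, against 35.9%) of 6 tested (median log2 fold change -0.19). The puromycin-sensitive aminopeptidase Npepps was higher (126 ± 5.45 to 168 ± 7.34 CPM, 0.41, adjusted p = 1.88e-06). Thop1, which degrades peptides of the length class I binds, was lower (54.1 ± 5.08 to 31.4 ± 2.46 CPM, -0.78, edgeR adjusted p = 8.34e-08), and so was leucine aminopeptidase Lap3 (-0.52, adjusted p = 1.33e-07). Erap1 at -0.47 thus lay within the range of this list.

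Of 15 factors that act on class I promoters, 6 were higher and 6 lower (40% each, against 35.2% and 35.9% of all genes) and 3 were not called, a share near the background (median log2 fold change 0.02). The parts of the RFX complex, with which Nlrc5 works, were not alike. Rfxank (21.9 ± 0.641 to 34.1 ± 1.49 CPM, 0.64, adjusted p = 9.69e-08) and Rfx5 (28.5 ± 1.36 to 43.3 ± 1.93 CPM, 0.60, adjusted p = 1.47e-07) were higher, and Rfxap was not called (0.02, adjusted p = 0.828). All 3 subunits of NF-Y, which binds CCAAT boxes, were lower (-0.40 for Nfya, -0.35 for Nfyb and -0.30 for Nfyc), as were the NF-κB subunits Nfkb1 (-0.23, adjusted p = 0.000702) and Rela (-0.21, adjusted p = 0.00176). Of the interferon-regulated factors, Irf9 (25.7 ± 0.658 to 38.1 ± 4.36 CPM, 0.57, adjusted p = 2.35e-06), Irf1 (0.32, adjusted p = 0.000156) and Irf2 (0.31, adjusted p = 0.000447) were higher by edgeR.

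Receptors and kinases of the interferon pathways were higher in 7 of 7 cases, against 35.2% of all genes, by modest amounts (median log2 fold change 0.30, range 0.19 to 0.56). Tyk2 differed most (41.4 ± 2.38 to 61.2 ± 1.69 CPM, 0.56, edgeR adjusted p = 1.46e-07), followed by Ifnar2 (0.33) and Jak2 (0.31). The interferon γ receptor chains Ifngr1 (40.3 ± 1.23 to 49.6 ± 0.433 CPM, 0.30, adjusted p = 8.13e-05) and Ifngr2 (0.19, adjusted p = 0.00848) had smaller differences. None of the 7 overlapped between groups, as was true of 73.4% of all genes.

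Of 9 class II presentation genes, 6 had no read in any library, among them the chains H2-Aa, H2-Ab1 and H2-Eb1. The 2 tested were both higher, where 35.2% of all genes were. Ciita, the class II transactivator and a relative of Nlrc5, was at 6.08, 5.51 and 6.31 CPM in mock and 9.75, 11.9 and 10.5 CPM in p140Cap libraries (0.84, SE 0.10, edgeR adjusted p = 1.2e-06), and H2-DMa, a chain of the class II loading factor, was at 3.01 ± 0.347 and 6.21 ± 0.614 CPM (1.07, adjusted p = 1.69e-06). H2-DMa overlaps the far more abundant Brd2 (315 CPM in mock and 271 CPM in p140Cap cells) on the opposite strand. Whether counting used strand is not known.

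Position was a property the choice by symbol did not use, and 7 of the 10 genes lie on chromosome 17, with Psmb9, Tap1, Psmb8 and Tap2 side by side between H2-K1 and H2-D1. The other 75 genes of the counts in that interval were looked at for comparison. Of 45 tested, 17 were higher (37.8%), 12 lower (26.7%) and 16 not called, beside 35.2% higher and 35.9% lower of all genes, and 29 of the 45 did not overlap between groups, a smaller share than the 73.4% of all genes. Their median log2 fold change was 0.08, over a range from -0.95 to 1.07, so that Psmb9 (1.77) and Tap1 (1.37) exceeded every other tested gene of the interval and Tap2 (0.96) did not.

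**Figure D4:**
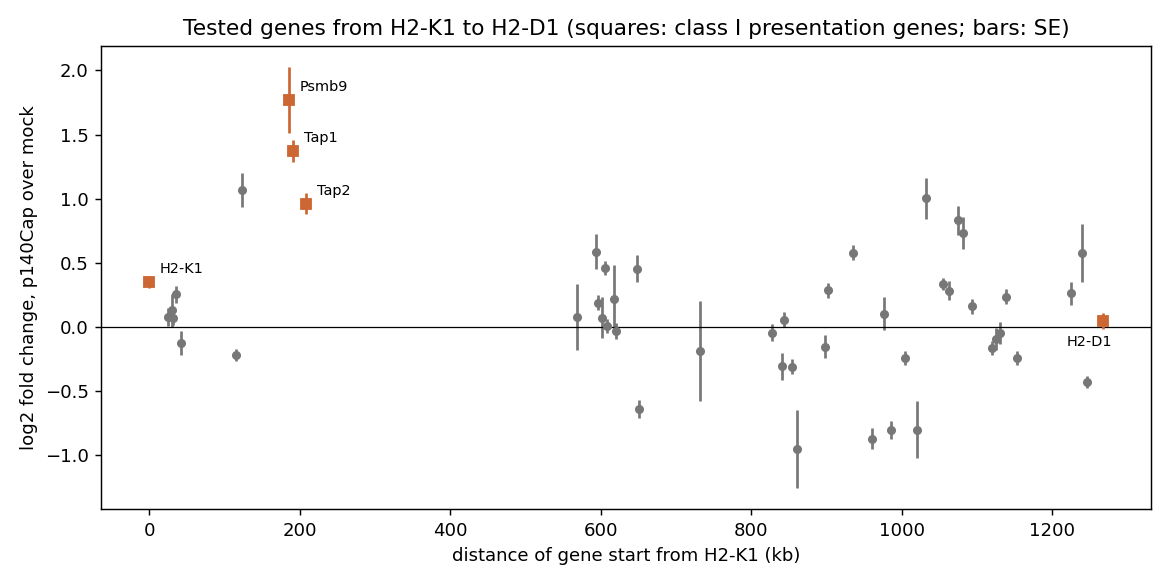
Log2 fold change (p140Cap over mock, bars are the SE) of the tested genes between H2-K1 and H2-D1 against the distance of their start from that of H2-K1 in kilobases, with class I presentation genes as orange squares and other genes as grey dots. Psmb9, Tap1 and Tap2 stand together at 1.77, 1.37 and 0.96, and the other genes scatter about a median of 0.08.

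Markers of cells that carry much class I machinery were scarce. Ptprc, Cd3e, Cd3g, Adgre1, Ly6g and Lyz2 of the leukocyte list had no read in any library. Its sum over 15 symbols was 2.79 to 3.15 CPM in mock and 4.04 to 4.70 CPM in p140Cap libraries, with Cd68 higher (2.14 ± 0.176 to 3.76 ± 0.460 CPM, log2 fold change 0.83, edgeR adjusted p = 0.000119) and Fcer1g, the other one tested, not called (-0.06, adjusted p = 0.865). Of 8 fibroblast markers 5 were at 0 (Col1a2, Col3a1, Dcn, Lum and Thy1), and the sum was 9.97 to 10.5 CPM in mock and 11.3 to 14.1 CPM in p140Cap libraries, with Col1a1 higher (0.80, adjusted p = 0.000244) and Pdgfra, the largest part of the sum, not called (7.18 ± 0.688 and 7.67 ± 0.830 CPM, adjusted p = 0.499). Of 6 endothelial markers Kdr was at 0 and Cdh5 had 1 read, with sums of 0.270 to 0.553 and 0.613 to 0.923 CPM. Pecam1, the only one tested, was at 0.271 ± 0.142 and 0.645 ± 0.146 CPM (1.25, edgeR adjusted p = 0.0133). It passed the low-count limit in 1 mock and 3 p140Cap libraries, so that it entered the test through the group where it is high, and its call was lost in 3 of 11 alternatives. The sums were thus higher in p140Cap libraries through single genes such as Cd68 and Col1a1, and their part in the differences of the class I genes was not tested.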

How the data were processed

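RNA-Seq libraries of TuBo cells, 3 mock and 3 p140Cap, were compared. RNA was poly(A)-selected per the labels, and stranded TruSeq libraries were made by the study's methods. The authors deposited raw counts, whole reads per gene and library, without normalization. The submitters' processing notes name STAR 2.5, RSEM and mm10, whereas the study names docker4seq in its methods and GRCm39 beside its data. No source used here tells whether counting used strand. Without strand, reads from the bases where Tap1 and Psmb9 overlap in opposite directions in GENCODE could not be told apart. The same is true of Erap1 and Cast and of B2m and Patl2. H2-K1, H2-D1, Tap2, Tapbp, Psmb8 and Nlrc5 also overlap genes on the opposite strand, so that this holds for all 10. The share of reads in such bases was not measured.

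Counts were analysed in R 4.3.3 with edgeR 4.0.16: TMM factors, filterByExpr by group, and the quasi-likelihood test with condition as the sole term over 11800 genes. Benjamini-Hochberg adjusted p under 0.05 was called. SE is the log2 fold change over the square root of F. Scripts were tested on simulated data. Alternatives were RLE factors, DESeq2 1.42.0, limma-voom (limma 3.58.1), other filters, each library left out, a replicate block and random thinning to the smallest library. Ratios used exact two-sided permutation tests. Intervals for rare genes are 95% exact binomial, on pooled reads.

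The 10 genes and all lists were chosen with earlier results of these data known. Genes named are these 10, Srcin1, key genes of each list set beforehand, and up to 3 called genes of each list with the largest change. Genes not called or at 0, marker genes, NF-Y and NF-κB subunits, H2-T23 and the less certain H2-Q and H2-T genes fall outside it and were named with their values known. Positions and sequences are from RefSeq GRCm38.p6 (97.0% of symbols matched), exon lengths, overlaps and shared stretches of 50 bases from GENCODE vM39 (98.6% of genes matched). The canonical ISRE core was added to the motifs after the others had been searched. Some genes of these lists are counted in the totals but not reported here by name.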

Additional observations from a re-analysis of the deposited data

How the results depend on the processing

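Under the 13 alternatives, 6 of the 10 genes were called higher and 1 lower each time. Log2 fold changes ranged from 0.32 to 0.37 for H2-K1, 0.23 to 0.32 for B2m, 1.32 to 1.44 for Tap1, 0.88 to 1.05 for Tap2, 0.45 to 0.61 for Tapbp, 1.68 to 2.22 for Psmb9 and -0.53 to -0.41 for Erap1. H2-D1 was never called, and with single libraries left out its value lay between -0.0057 (without p140Cap replicate 2) and 0.10. Without a filter on low counts Psmb8 (log2 fold change 0.98, edgeR adjusted p = 0.187) and Nlrc5 (adjusted p = 0.606) were not called. Of the lists, the ER loading partners had 1 lower gene instead of 2 with the replicate block, and with single libraries left out 1 to 2 lower and 1 to 3 higher. The lower count of the interferon-induced proteasome parts was 0 with DESeq2, and 0 to 1 with single libraries left out. The cause was not tested. Other genes of the interval between H2-K1 and H2-D1 numbered 14 to 20 higher and 9 to 13 lower.

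The replicate block changed no call of the 10 genes (over all genes, 3980 higher and 4054 lower). Deviations of same-numbered libraries correlated at 0.0055, -0.31 and -0.060, and no library correlated best with its own number, so the numbers were not taken to pair the samples. A sign-flip test of the ratios within replicate numbers cannot go below p = 0.25 (exact test). Depth limited Psmb8, Nlrc5 and the ratios that rest on Psmb8 or Psmb9.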
